A study of Canis lupus familiaris with 13 samples.

Results

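The genes described here make, pass on, edit or remove ubiquitin, the small protein that cells attach to other proteins. They were chosen by name: every probe set whose array annotation gave a single gene symbol starting with UBE2, FBXO, FBXL or FBXW, or with TRIM, ASB, CUL, RNF or USP and a digit, without ASB12. This gave 129 genes of the 6540 with a single symbol, measured by 203 probe sets. They were 18 UBE2 conjugating enzymes, 14 TRIM proteins, 20 F-box proteins, 5 ASB proteins, 5 cullins, 39 RNF proteins and 28 USP deubiquitinases. Each gene was read from its probe set with the highest mean signal over the 13 arrays, and 111 of the 129 passed the filter on low signal and were tested. A name is no proof of activity: USP6NL matched the rule by its letters but is a GTPase-activating protein.

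Ubiquitin moves along a relay. An activating enzyme loads it onto a UBE2 conjugating enzyme, and a ligase brings that enzyme to the protein to be tagged. Most TRIM and most RNF proteins are ligases with a RING domain of their own. F-box and ASB proteins, in contrast, are the part of a cullin ligase that recognises the substrate: F-box proteins work with CUL1 and ASB proteins with CUL5. USP enzymes take ubiquitin off again. In striated muscle the system sends damaged or surplus sarcomere proteins to the proteasome, and ligases such as FBXO32 (atrogin-1) are known for their part in muscle wasting. TRIM63, TRIM54, TRIM55, TRIM72 and TRIM32, muscle ligases of the same families, were not analysed here.

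RNA came from 13 dog heart samples, named separately in the labels, with 1 array each, and each was taken as a different dog. The controls were 3 mongrels (P1, P4 and P9). Dilated cardiomyopathy (DCM), in which the ventricles widen and pump poorly, was represented by 3 Dobermans (K, L and R) and 4 Boxers (1 to 4), and a further 3 mongrels (LV01, LV02 and LV04) had been paced, that is, had their heartbeat driven by an electrode. The labels gave no age, no pacing rate or length and no treatment, and no sample of a healthy Doberman or Boxer was given, so breed and disease went together in both comparisons of a breed with the controls. In whole tissue, fewer cells of a type and less RNA per cell cannot be told apart.

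Signals are MAS5 values on a linear scale, differences are in log2(signal + 16) with their standard error (SE), and adjusted p-values are those of the limma fit across all tested probe sets, with Benjamini-Hochberg adjustment; a gene passed where this was under 0.05. Levels of different genes are not compared, since each probe set has its own brightness. Dobermans L and R stood apart: their ratio of 3' to 5' GAPDH control signal was 2.10 and 3.62, against 0.967 to 1.09 on the other 11 arrays, K among them. Median signal was 219 to 234 in L and R and 207 to 219 in the paced mongrels, against 132 to 160 elsewhere. The mean signal of the spike-in control probe sets was 9046 to 14699 in L and R and 10980 to 19673 in the paced mongrels. Elsewhere it was 3721 to 5910. Within their own group, Doberman arrays correlated at a mean r of 0.789 to 0.844, and arrays of the other groups at 0.947 to 0.969. The part of these array differences in the results was not tested. Of 12 cardiac muscle markers tested, RYR2 passed as lower in the Dobermans and none passed in the Boxers or paced mongrels against the controls, and their summed signal was 231000 to 335700 in the controls, 251000 to 494200 in the Dobermans, 235500 to 264800 in the Boxers and 204000 to 228300 in the paced mongrels.

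Against the controls, 26 of the 111 tested ubiquitin genes passed in the Dobermans, 9 higher and 17 lower. That is 23.4%, beside 26.0% of all 5242 tested genes (11.9% higher and 14.1% lower). In the Boxers 0 passed in limma, with 8 at an unadjusted p under 0.05, beside 0.0572% of all genes (0.0191% higher and 0.0382% lower). In the paced mongrels 4 passed, 3 higher and 1 lower, or 3.6% beside 9.23% (5.19% higher and 4.04% lower). Between the breeds, 34 passed, 14 higher and 20 lower in Dobermans than in Boxers, or 30.6% beside 34.2% (16.8% higher and 17.4% lower). Set against the paced mongrels, 27 passed in the Dobermans, 12 higher and 15 lower, or 24.3% beside 24.7% (13.6% higher and 11.2% lower). The Boxers differed from the paced mongrels in 16 genes, 6 higher and 10 lower, or 14.4% beside 14.2% (5.84% higher and 8.37% lower). The shares among the ubiquitin genes were thus below or close to those of all genes in each comparison. The median difference of the ubiquitin genes lay between -0.06 and 0.03 in the 6 comparisons, and that of all genes between -0.04 and 0.05. In at least 1 comparison 58 of the 111 genes passed, and 53 passed in none. Of the 111, 5 (TRIM17, TRIM68, FBXO7, FBXO33 and RNF152) would have had a mean under the filter level without the group in which they were highest. The calls of TRIM17 and FBXO7 are given as a description only.

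**Figure D1:**
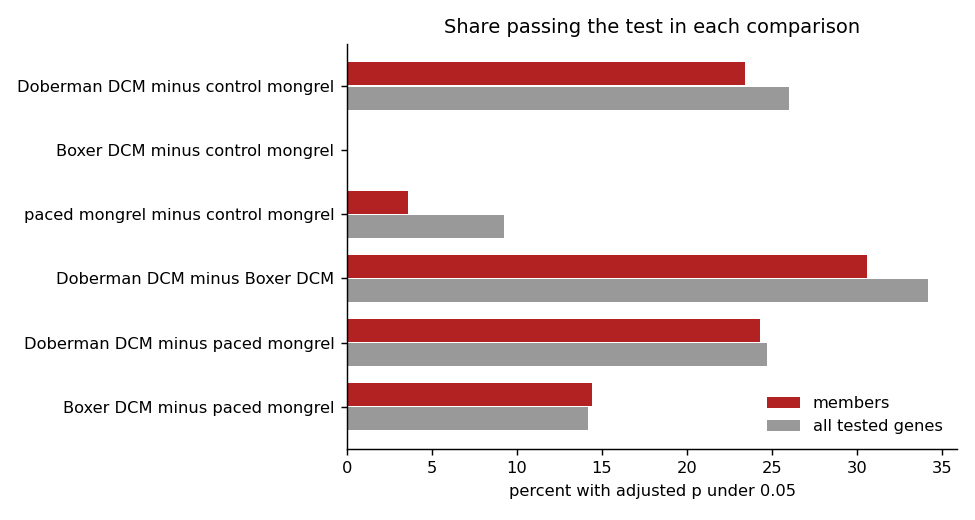
Percent of genes with an adjusted p under 0.05 in each of the 6 comparisons, for the 111 tested ubiquitin genes (red) and all 5242 tested genes (grey). The 2 shares lie within a few percentage points of each other throughout, and both are at or near 0 for Boxers against controls.

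**Figure D2:**
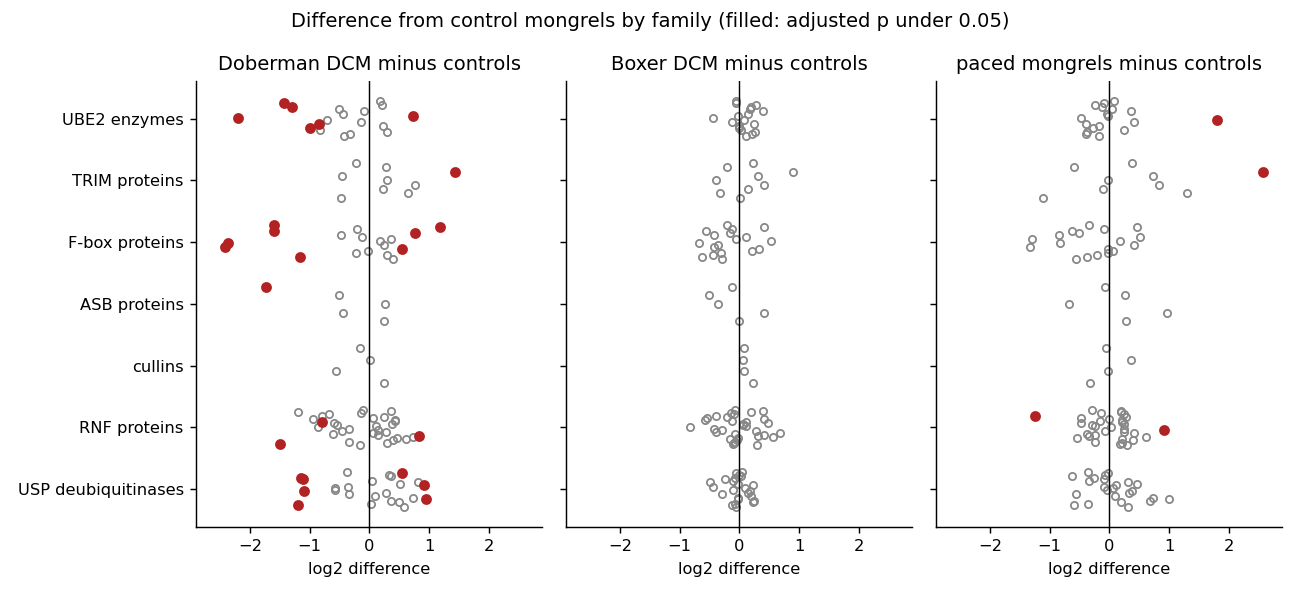
Log2 difference from the control mongrels for each tested ubiquitin gene (1 point each), by family, in the Dobermans, the Boxers and the paced mongrels; filled points have an adjusted p under 0.05. Filled points are spread to both sides in the Dobermans (26), absent in the Boxers and few in the paced mongrels (4).

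The balance of rises and falls depended on how arrays were put on a common scale. Centring each array on its median moved the median of all genes to -0.40 in Dobermans against controls, -0.55 in paced mongrels against controls, -0.47 in Dobermans against Boxers, 0.06 in Dobermans against paced mongrels and 0.63 in Boxers against paced mongrels. With that shift the ubiquitin genes passed 1 higher and 35 lower, 2 higher and 31 lower, 0 higher and 46 lower, 15 higher and 9 lower, and 39 higher and 2 lower, in the same order. All genes shifted likewise, with 2.63% higher and 27.1% lower, 1.85% and 29.9%, 3.83% and 37.1%, 15.8% and 6.52%, and 41.1% and 2.33%. Quantile normalization gave 6 higher and 17 lower in Dobermans against controls, 2 higher and 6 lower in paced mongrels against controls and 7 higher and 5 lower in Boxers against paced mongrels, beside 21.3%, 8.41% and 10.7% of all genes in either direction.

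Most of the Doberman differences lay in dogs L and R. Of the 17 genes that fell, dog K had a median difference from the control mean of -0.20, dog L of -1.84 and dog R of -1.80. Dog K lay below all controls in 10 of the 17, within their range in 5 and above it in 2. The 9 genes that rose had medians of 0.49, 1.30 and 0.88 in K, L and R, and K lay above all controls in 7 of them. Over all genes that fell in the Dobermans K lay below the controls in 614 of 737, and over all that rose it lay above in 573 of 624; the mean that set these calls includes K. Without L and R, which leaves K as the only Doberman, ASB11 differed from the controls by -1.29. USP21, named here after its values were seen, was 394, 421 and 412 in the controls and 747, 497 and 559 in Dobermans K, L and R. With any 1 of the 6 arrays left out, the count ran from 5 without L to 53 without K (7 without R, P1, P4 or P9). Of all 14302 tested probe sets, 1192 passed without L and 7340 without K. The genes that passed in all 6 such fits were ASB11, FBXL5, FBXW7 and USP8 (lower) and USP24 (higher). With the 3'/5' ratio of GAPDH entered as covariate, which goes largely with the Doberman group, only ASB11 passed, beside 95 of all 14302 tested probe sets. In a limma fit of the 6 Doberman and control arrays alone 0 passed, with 24 at an unadjusted p under 0.05, beside 0.191% of all genes.

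**Figure D3:**
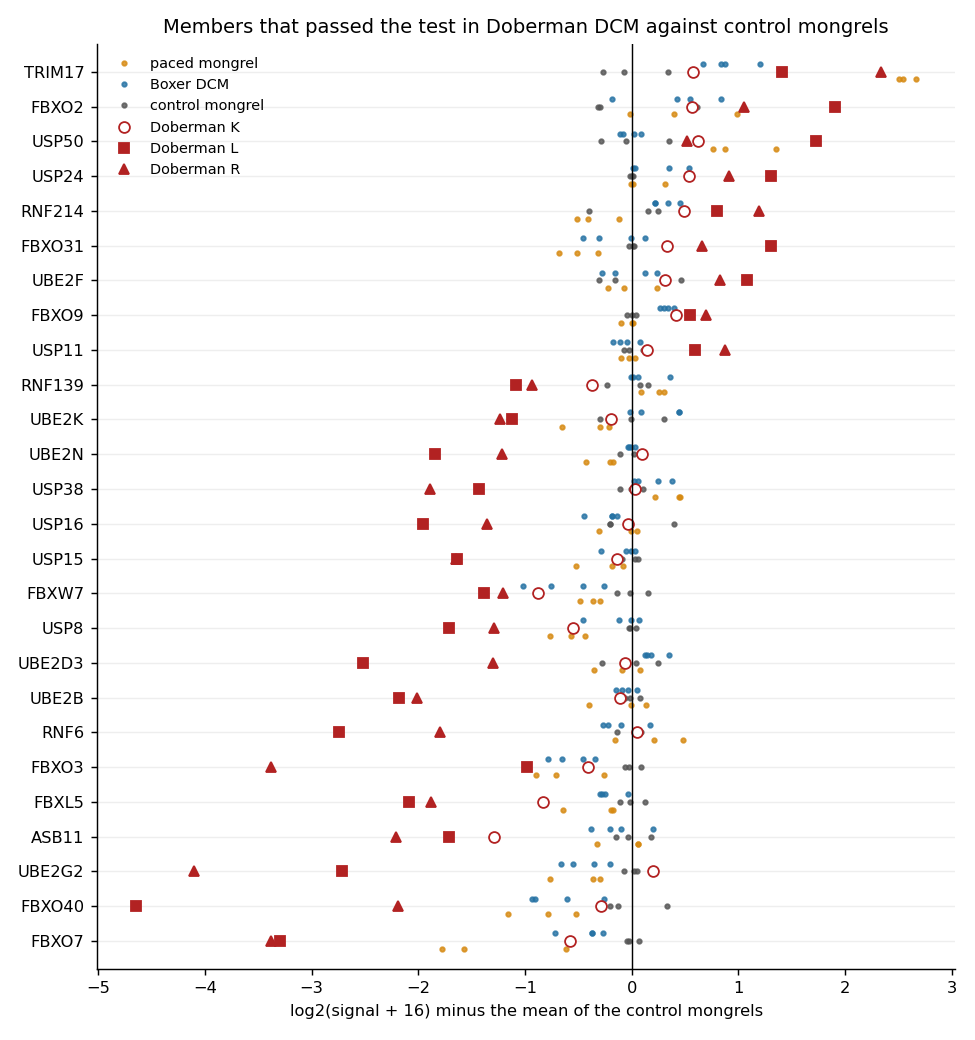
The 26 ubiquitin genes that passed in Dobermans against controls, ordered by their mean difference; each point is 1 array, as log2(signal + 16) minus the control mean. Open circles (Doberman K) lie near 0 for UBE2B, UBE2D3, UBE2G2, UBE2N, RNF6, USP16 and USP38, where L (squares) and R (triangles) lie far to the left, whereas for ASB11 all 3 Dobermans lie below every other array.

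Among the UBE2 conjugating enzymes 6 of 18 passed in the Dobermans against the controls, or 33.3% beside 26.0% of all genes. UBE2F was higher and UBE2B, UBE2D3, UBE2G2, UBE2K and UBE2N were lower. UBE2B, a RAD6-type enzyme that works with RNF20 on histone H2B, had the brightest probe set of the family. Its signal was 5334, 5163 and 5674 in the controls, 5002, 1175 and 1327 in Dobermans K, L and R, 5269, 5063, 5564 and 4854 in the Boxers, and 5914, 5358 and 4086 in the paced mongrels. Dobermans L and R were low and K was next to the controls, Boxers and paced mongrels. The difference was -1.43 ± 0.39 (adjusted p = 0.0224) against the controls and -1.38 ± 0.37 (adjusted p = 0.0149) against the Boxers. UBE2A, the close relative of UBE2B, had signals of 1793, 1488 and 1377 in the controls and 1929, 1352 and 2076 in Dobermans K, L and R, and its difference of 0.19 ± 0.25 (adjusted p = 0.581) did not pass.

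UBE2D3, a conjugating enzyme used by many RING ligases, repeated this pattern with 3764, 5417 and 4687 in the controls and 4372, 787 and 1848 in Dobermans K, L and R and a difference of -1.29 ± 0.42 (adjusted p = 0.0391). Its relative UBE2D2 had a difference of 0.21 ± 0.23 (adjusted p = 0.492). UBE2N, which builds signalling chains together with UBE2V1 or UBE2V2, gave 1824, 1908 and 1657 in the controls and 1918, 489 and 762 in Dobermans K, L and R, with K just above the highest control. The difference was -0.99 ± 0.34 (adjusted p = 0.0477). Of its partners, UBE2V1 had a difference of -0.32 ± 0.15 (adjusted p = 0.132) against the controls and passed as lower against the Boxers (-0.53 ± 0.14 (adjusted p = 0.0156)), with 1759.8, 1506 and 1522 in the Dobermans and 2254, 2576, 2269.7 and 2165 in the Boxers. UBE2V2 did not pass in either comparison (-0.42 ± 0.25 (adjusted p = 0.209) and -0.53 ± 0.23 (adjusted p = 0.0868)). UBE2K, which builds chains that mark proteins for the proteasome, fell by 0.85 on the log2 scale, from 831, 539.9 and 668 in the controls to 582, 298 and 276 in Dobermans K, L and R. UBE2L3, a partner of HECT and RBR ligases, did not pass in any comparison.

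UBE2G2, UBE2J1 and UBE2J2 are known for clearing misfolded proteins from the endoplasmic reticulum (ER). Against the controls, UBE2G2 passed in the Dobermans and UBE2J1 in the paced mongrels. UBE2J2 passed in neither (-0.14 ± 0.22, adjusted p = 0.646 and 0.40 ± 0.22, adjusted p = 0.25). UBE2G2 had signals of 447, 419 and 455 in the controls, 508, 53.5 and 10.6 in Dobermans K, L and R, 341, 296, 273 and 379.9 in the Boxers, and 355, 252 and 338 in the paced mongrels. It was lowest in L and R and above the highest control in K, and its difference of -2.21 ± 0.71 (adjusted p = 0.039) turned to 0.20 without L and R and to 0.07 with the GAPDH ratio as a covariate. UBE2J1 gave 155, 186 and 153 in the controls, 111, 148 and 47.7 in Dobermans K, L and R, 212, 136, 201 and 160.0 in the Boxers, and 719, 545 and 591 in the paced mongrels. All 3 paced mongrels lay above all 10 other arrays. The rise over the controls was 1.81 ± 0.32 (adjusted p = 0.00416), and it passed under each of the 14 alternatives that could be run, with differences of 1.70 to 1.89 when 1 array was left out. Relative to the paced mongrels the difference was -2.52 ± 0.32 (adjusted p = 0.000301) in the Dobermans and -1.72 ± 0.30 (adjusted p = 0.00244) in the Boxers.

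UBE2F, which loads the ubiquitin-like protein NEDD8 onto CUL5, was higher in the Dobermans with 894, 521 and 578 in the controls and 804, 1385 and 1158 in Dobermans K, L and R and a difference of 0.74 ± 0.26 (adjusted p = 0.0484), although 1 control lay above K. UBE2R2, a partner of cullin ligases, was 1000.3, 988, 1034 and 829 in the Boxers and 594, 613 and 643 in the paced mongrels, with a difference of 0.63 ± 0.20 (adjusted p = 0.0447). Its second probe set had a difference of -0.15 there. UBE2V1 was also higher in the Boxers than in the paced mongrels, with 0.62 ± 0.14 (adjusted p = 0.0116) and paced signals of 1427, 1648 and 1444.

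In the TRIM family 1 of 9 tested genes, TRIM17, passed in the Dobermans against the controls, or 11.1% beside 26.0% of all genes. The same gene was 1 of the 4 that passed in the paced mongrels. TRIM17 is a RING ligase known mainly from neurons. Its signal was 40.9, 33.7 and 59.8 in the controls, 73.0, 143 and 286 in Dobermans K, L and R, 121, 90.7, 78.9 and 93.9 in the Boxers, and 324, 364 and 332 in the paced mongrels. Every Doberman, Boxer and paced array lay above the 3 controls, whose values are below the filter level of 108, so that the size of the difference depends on the pseudocount (2.93 for the paced mongrels with 1 and 1.90 with 64). TRIM17 passed the filter only through the groups where it was high, so it had to differ between groups to be tested at all. The paced mongrels differed by 2.57 ± 0.38 (adjusted p = 0.00196), the Dobermans by 1.44 ± 0.38 (adjusted p = 0.0191), a call lost when L, R, P1 or P4 was left out, and the Boxers by 0.89 ± 0.35 (adjusted p = 0.589), which did not pass. The paced mongrels were also above the Boxers (-1.68 ± 0.35 (adjusted p = 0.0068) for Boxers minus paced) and the Dobermans (-1.13 ± 0.38 (adjusted p = 0.0425) for Dobermans minus paced).

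TRIM28, a corepressor of transcription and the brightest probe set of the family, was 1342, 1265 and 971 in the controls, 1108, 1713 and 1623 in Dobermans K, L and R, and 975, 869, 882 and 883 in the Boxers. It passed as higher in the Dobermans than in the Boxers (0.68 ± 0.19 (adjusted p = 0.0166)) and in no comparison with the controls. TRIM50 was lower in the Boxers than in the paced mongrels, with 130.4, 21.9, 138 and 81.3 in the Boxers and 248, 235 and 378 in the paced mongrels and a difference of -1.63 ± 0.47 (adjusted p = 0.028). TRIM16 was higher in the Dobermans than in the paced mongrels (0.87 ± 0.27 (adjusted p = 0.0342)). TRIM68 was among the 3 genes with the smallest p on the lower side in the paced mongrels against the controls, with 115, 161 and 177 in the controls and 46.7, 35.1 and 122 in the paced mongrels, and did not pass (-1.11 ± 0.41 (adjusted p = 0.0912)).

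The F-box family had 8 of its 18 tested genes past the threshold in the Dobermans against the controls, or 44.4% beside 26.0% of all genes. FBXO2, FBXO31 and FBXO9 were higher and FBXL5, FBXO3, FBXO40, FBXO7 and FBXW7 lower. In the Boxers and in the paced mongrels 0 of 18 passed against the controls, beside 0.0572% and 9.23% of all genes. FBXL5 senses iron and directs the iron regulatory protein IREB2 to degradation. Its signal was 2761, 2933 and 3251 in the controls, 1659.7, 689 and 798 in Dobermans K, L and R, 2501, 2454, 2897 and 2422 in the Boxers, and 2596, 2636 and 1901 in the paced mongrels. All 3 Dobermans lay below all 10 other arrays, K least so, and the difference was -1.60 ± 0.27 (adjusted p = 0.00497) against the controls and -1.39 ± 0.25 (adjusted p = 0.004) against the Boxers. The other tested probe set of FBXL5, with signals of 349, 264 and 238 in the controls and 184, 319.6 and 292 in the Dobermans, differed by -0.11 and did not pass. FBXW7, which marks MYC, NOTCH and cyclin E for degradation, was 497, 613 and 543 in the controls, 291, 201 and 228 in Dobermans K, L and R, 319, 455, 396 and 263 in the Boxers, and 389, 424 and 442 in the paced mongrels. The Dobermans fell by 1.16 ± 0.23 on the log2 scale (adjusted p = 0.00776). Every Boxer and paced array lay below every control as well, but the differences of -0.62 ± 0.21 (adjusted p = 0.511) and -0.38 ± 0.23 (adjusted p = 0.285) did not pass.

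FBXO40, a muscle F-box protein that targets the insulin receptor substrate IRS1, gave 1694, 1605 and 2323 in the controls, 1509, 58.5 and 392 in Dobermans K, L and R, 1539.5, 1211, 980.1 and 959 in the Boxers, and 1286, 1063 and 819 in the paced mongrels. L was lowest, R intermediate and K just under the controls, and the Dobermans differed by -2.38 ± 0.72 (adjusted p = 0.0316). FBXO7, known from an inherited form of parkinsonism, gave 238, 256 and 235 in the controls, 158, 10.4 and 8.9 in Dobermans K, L and R, 184, 198, 141 and 184 in the Boxers, and 70.9, 59.4 and 153 in the paced mongrels. L and R were near the floor of the array, and 2 of the 3 paced mongrels were also low. The Doberman difference was -2.42 ± 0.58 (adjusted p = 0.0148), and the paced difference of -1.32 ± 0.58 (adjusted p = 0.153) did not pass. FBXO7 passed the filter only through the controls, where it was highest, so its calls are a description only. FBXO3 fell through Doberman R in particular, with 376, 386 and 419.6 in the controls and 292, 191 and 23.4 in Dobermans K, L and R and -1.59 ± 0.54 (adjusted p = 0.0444).

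Among the F-box genes that rose, FBXO9 had the narrowest spread, with 607, 627 and 646 in the controls, 841, 921 and 1025 in Dobermans K, L and R, 775, 831, 756 and 798 in the Boxers, and 630.4, 627 and 583 in the paced mongrels. The Dobermans were above all other arrays and the 4 Boxers above the controls and paced mongrels, with differences from the controls of 0.55 ± 0.16 (adjusted p = 0.0246) and 0.33 ± 0.15 (adjusted p = 0.667), of which only the first passed. FBXO31, which targets cyclin D1, was 691, 709.8 and 713 in the controls, 891, 1762 and 1124 in Dobermans K, L and R, 701, 771, 566 and 509 in the Boxers, and 563, 433 and 490.4 in the paced mongrels, highest in L. It was higher in the Dobermans than in the controls (0.77 ± 0.24 (adjusted p = 0.0364)), the Boxers (0.93 ± 0.23 (adjusted p = 0.0107)) and the paced mongrels (1.27 ± 0.24 (adjusted p = 0.00337)). FBXO2, which binds glycoproteins, was 206, 101 and 103 in the controls and 199, 529.8 and 286 in Dobermans K, L and R, with 1 control above K, and passed narrowly (1.18 ± 0.40 (adjusted p = 0.0456)).

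FBXO32, the muscle ligase subunit known as atrogin-1, did not pass in any of the 6 comparisons. Its signal was 978, 1121 and 1060.3 in the controls, 1496, 429 and 666 in Dobermans K, L and R, 813, 657, 716 and 956 in the Boxers, and 502, 627 and 615 in the paced mongrels. The Dobermans straddled the controls, with K above and L and R below. All 4 Boxers and all 3 paced mongrels lay below the lowest control, with differences of -0.43 ± 0.31 (adjusted p = 0.83) and -0.84 ± 0.33 (adjusted p = 0.11). It passed as lower in the paced mongrels with array weights, with the GAPDH ratio as a covariate, with median centring and in a fit of the 6 paced and control arrays alone, and as lower in the Dobermans without K. FBXO38 had 2 tested probe sets that disagreed. The brighter one gave 161, 160.4 and 217 in the controls and 43.7, 113 and 48.8 in the paced mongrels and was lower in the paced mongrels by -1.29 ± 0.43 (adjusted p = 0.0663) against the controls, which did not pass. The other gave 121, 110.4 and 135 in the controls and 263, 279 and 311 in the paced mongrels and was higher by 1.12 ± 0.29 (adjusted p = 0.0242). Without the paced mongrels the mean of this fainter probe set would have been just under the filter level. Its calls are therefore given as a description only.

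**Figure D4:**
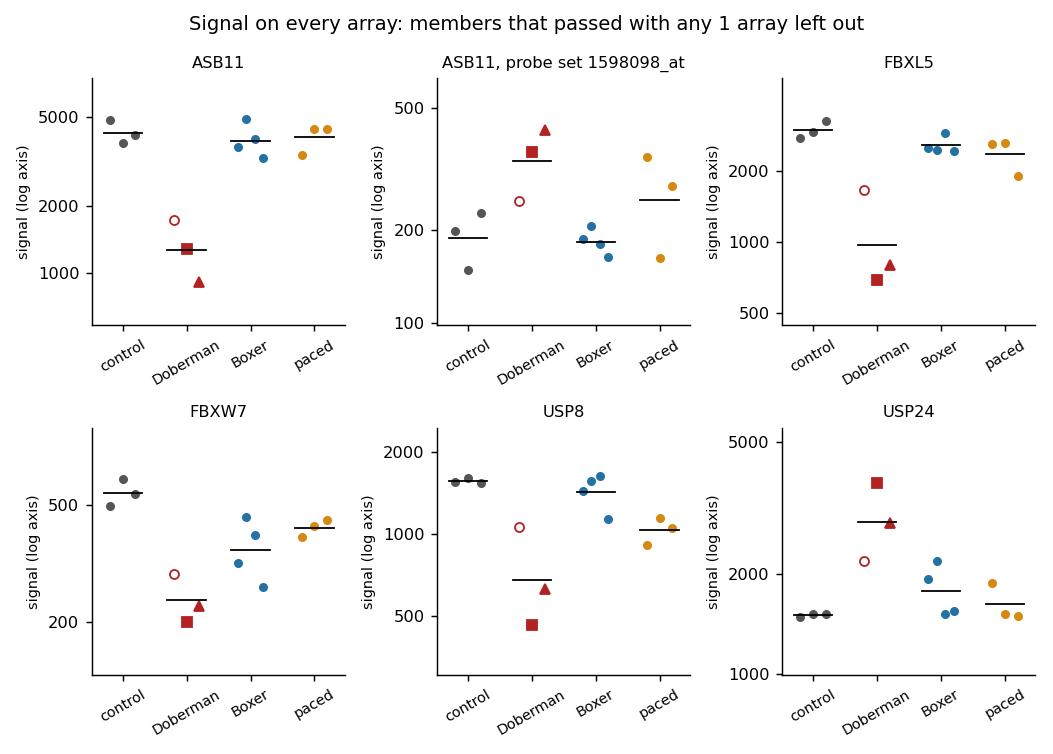
Signal on every array (log axis) in the 4 groups for the 5 genes that passed in Dobermans against controls whichever single array was left out, with ASB11 shown by both of its tested probe sets; the open circle is Doberman K, the square L, the triangle R and the line the group mean on the log2(signal + 16) scale. Dobermans lie below the other groups for ASB11, FBXL5 and FBXW7 except for 1 Boxer below K for FBXW7, and the fainter ASB11 probe set runs the other way.

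Of the 5 ASB proteins, all tested, ASB11 passed in the Dobermans. ASB proteins carry ankyrin repeats and a SOCS box that joins them to CUL5, and ASB2 is best known from muscle. ASB11 had signals of 4836, 3839.7 and 4149 in the controls, 1728, 1285 and 908 in Dobermans K, L and R, 3684, 4889, 3981 and 3262 in the Boxers, and 3387, 4437 and 4429.5 in the paced mongrels. The 3 Dobermans lay below every other array, and the other 3 groups overlapped. The Doberman difference was -1.74 ± 0.23 (adjusted p = 0.00211) against the controls, -1.62 ± 0.22 (adjusted p = 0.0017) against the Boxers and -1.67 ± 0.23 (adjusted p = 0.000593) against the paced mongrels. Without L and R it was -1.29 (adjusted p = 0.0189, in a range of 1.6e-05 to 0.0724 over 17 alternatives), the highest value being that of the fit of the compared groups alone. A fainter probe set of ASB11, however, gave 198, 148 and 228 in the controls, 248, 358 and 422 in Dobermans K, L and R, and 187, 206, 181 and 163 in the Boxers. By that probe set the Dobermans were higher, by 0.78 ± 0.29 (adjusted p = 0.0608) against the controls and 0.81 ± 0.27 (adjusted p = 0.033) against the Boxers, so the direction for ASB11 depends on the probe set.

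ASB2, which directs filamins to degradation and had the brightest probe set among the ASB genes, was 5229.9, 6817 and 3974 in the controls, 3978, 9718 and 6308 in Dobermans K, L and R, 3959.8, 4483, 4228 and 3696 in the Boxers, and 3378, 3822 and 2661 in the paced mongrels. It passed only between Dobermans and paced mongrels (0.94 ± 0.28 (adjusted p = 0.0292)). ASB14 was lower in the Boxers (-0.77 ± 0.23 (adjusted p = 0.0335)) and the Dobermans (-0.77 ± 0.24 (adjusted p = 0.0354)) than in the paced mongrels, with 203, 245 and 253 in Dobermans K, L and R, 221, 249, 236 and 227 in the Boxers, and 408, 334 and 500.2 in the paced mongrels. ASB6 was 173, 224 and 214 in the controls, 170.4, 58.7 and 281 in Dobermans K, L and R, and 288, 443 and 539.8 in the paced mongrels, and the Dobermans were lower than the paced mongrels by -1.41 ± 0.40 (adjusted p = 0.0219).

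None of the 4 tested cullins passed against the controls in any group by their brightest probe sets. Adjusted p-values for CUL1, CUL2, CUL3 and CUL4A were 0.0967 or more. Of all genes, 26.0% passed in the Dobermans, 0.0572% in the Boxers and 9.23% in the paced mongrels. With only 4 genes, the lack of calls says little about the family. CUL1, the scaffold of the F-box ligases, lay between 1664 and 2669 on all 13 arrays, and its largest group difference from the controls was -0.16 ± 0.18 (adjusted p = 0.512) in the Dobermans. CUL2 differed from the controls by at most 0.36 ± 0.35 (adjusted p = 0.532). CUL3, which works with BTB proteins, was 2737, 2501 and 3407 in the controls, 2353, 1201 and 2566 in Dobermans K, L and R, and 2952, 3121, 3158 and 2913 in the Boxers. It passed as lower in the Dobermans than in the Boxers (-0.64 ± 0.23 (adjusted p = 0.0413)), with L lowest. CUL4A, the brightest of the cullin probe sets, was 5505, 5245 and 6924 in the controls, 5459.9, 10308 and 5904 in Dobermans K, L and R, 6527, 6589.9, 7048 and 7138 in the Boxers, and 4252, 4579.9 and 5259.5 in the paced mongrels. A fainter CUL4A probe set passed as higher in the Dobermans (0.83 ± 0.28, adjusted p = 0.0443) and the paced mongrels (1.24 ± 0.28, adjusted p = 0.0132), with 382, 199 and 287 in the controls, 365, 643 and 562 in Dobermans K, L and R, and 709, 724 and 617 in the paced mongrels. The faintest CUL4A probe set did not pass in either (-0.41 ± 0.45, adjusted p = 0.495 and 1.12 ± 0.45, adjusted p = 0.119), with 139.5, 163 and 99.6 in the controls, 149.8, 167 and 28.9 in Dobermans K, L and R, and 334, 231 and 361 in the paced mongrels, lowest in R. RNF7, the RING partner of CUL5, was 2061, 1996 and 2363 in the controls, 1604, 2338 and 1888 in Dobermans K, L and R, and 2526, 2612, 2784 and 2634 in the Boxers and passed as lower in Dobermans than in Boxers (-0.45 ± 0.15 (adjusted p = 0.0352)).

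The RNF family was the largest, and 3 of its 33 tested genes passed in the Dobermans, RNF214 higher and RNF139 and RNF6 lower. That is 9.09% beside 26.0% of all genes. In the paced mongrels 2 passed, RNF169 higher and RNF114 lower, or 6.06% beside 9.23%. RNF6, a ligase of the androgen receptor, was 246, 212 and 250.2 in the controls, 244, 21.4 and 56.1 in Dobermans K, L and R, 199, 218, 193 and 267 in the Boxers, and 209.5, 335 and 274 in the paced mongrels. It was low in L and R and at the control level in K, and its difference of -1.50 ± 0.50 (adjusted p = 0.0426) was 0.05 without L and R. RNF139, an ER ligase tied to sterol control, was 856, 651 and 811 in the controls and 591, 353 and 395 in Dobermans K, L and R and fell by 0.80 on the log2 scale. RNF214 gave 282, 452 and 421 in the controls, 535, 669 and 881 in Dobermans K, L and R, 443, 482, 523 and 442 in the Boxers, and 260.4, 347 and 280.0 in the paced mongrels. All 3 Dobermans lay above all other arrays, with 0.82 ± 0.23 (adjusted p = 0.0248) against the controls and 1.17 ± 0.23 (adjusted p = 0.00413) against the paced mongrels.

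RNF169, which binds damaged chromatin and limits repair factors there, was 314, 211 and 257 in the controls, 249, 244 and 382 in Dobermans K, L and R, 186, 268, 155 and 244 in the Boxers, and 489, 501 and 510.0 in the paced mongrels. The 3 paced arrays lay close together and above all 10 others, with 0.92 ± 0.25 (adjusted p = 0.0318) against the controls. RNF114 was 686, 1085 and 833 in the controls, 752, 337 and 449.6 in Dobermans K, L and R, 697, 635, 644 and 605 in the Boxers, and 279, 325 and 475 in the paced mongrels. The paced mongrels were below all controls and Boxers, with -1.24 ± 0.28 (adjusted p = 0.0134), and 2 of the 3 Dobermans were as low, where the difference of -0.79 ± 0.28 (adjusted p = 0.0521) did not pass. A fainter RNF114 probe set differed by 0.01 between paced mongrels and controls. The call of RNF114 was lost without control P4 or without paced mongrel LV01, and that of RNF169 without any 1 of P4, P9, LV01, LV02 and LV04.

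RNF20, the ligase that tags histone H2B together with UBE2A and UBE2B, was 1090.0, 909 and 1183 in the controls, 1390.3, 1224, 1636 and 1443 in the Boxers, and 994, 902 and 788 in the paced mongrels. The 4 Boxers lay above every control and paced array, with 0.42 ± 0.18 (adjusted p = 0.641) against the controls, which did not pass, and 0.66 ± 0.18 (adjusted p = 0.024) against the paced mongrels, which did. RNF13 was 682, 763 and 850.2 in the controls, 756, 439 and 174 in Dobermans K, L and R, and 1001, 1041, 1073 and 989.7 in the Boxers, lowest in R, and the breeds differed by -1.36 ± 0.34 (adjusted p = 0.0118). Its second probe set was at 527, 572 and 636 in the controls and 428, 47.1 and 63.0 in Dobermans K, L and R, and passed against the controls as well (-2.19 ± 0.53, adjusted p = 0.0151). RNF11 was 737, 745 and 807 in the controls, 875, 276 and 135 in Dobermans K, L and R, and 969, 993, 839.5 and 719 in the Boxers. It differed between the breeds by -1.39 ± 0.41 (adjusted p = 0.0219), but by 0.0029 on dog K alone. RNF115, the brightest RNF probe set, and RNF10 did not pass in any comparison by their brightest probe sets. A fainter RNF10 probe set passed as higher in Dobermans than in Boxers (0.66 ± 0.20, adjusted p = 0.0237). Another passed as higher in Dobermans than in paced mongrels (0.73 ± 0.17, adjusted p = 0.00961).

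RNF130 and RNF25 were higher in the Dobermans than in the Boxers, by 1.00 ± 0.31 (adjusted p = 0.0264) and 0.77 ± 0.21 (adjusted p = 0.0167). RNF130 was 947, 856 and 761 in the controls, 1622, 1033 and 901 in Dobermans K, L and R, and 411, 434, 539.5 and 1049.5 in the Boxers, and 3 of the 4 Boxers were below every control. RNF141, in contrast, was 459.7, 189 and 158 in Dobermans K, L and R, 512, 429, 549 and 601 in the Boxers, and 252, 219 and 324 in the paced mongrels, and the Boxers were above the paced mongrels by 0.95 ± 0.30 (adjusted p = 0.0428). RNF220 was 1167, 1279 and 2501 in Dobermans K, L and R and 821, 866 and 647 in the paced mongrels, with the Dobermans higher by 0.99 ± 0.26 (adjusted p = 0.0141). A fainter RNF220 probe set differed there by 0.07 and did not pass.

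The USP deubiquitinases had 7 of 24 genes past the threshold in the Dobermans against the controls, or 29.2% beside 26.0% of all genes. USP11, USP24 and USP50 were higher and USP15, USP16, USP38 and USP8 lower. USP8, which acts on receptors at the endosome, was 1545, 1607 and 1537 in the controls, 1061, 465 and 628 in Dobermans K, L and R, 1441, 1560.1, 1638 and 1136 in the Boxers, and 910.1, 1147 and 1049.9 in the paced mongrels. The 3 Dobermans were below the controls and the paced mongrels were as low as K, and the Doberman difference was -1.19 ± 0.25 (adjusted p = 0.0101). By the 2 fainter USP8 probe sets the Doberman difference was smaller and did not pass (-0.61 ± 0.25, adjusted p = 0.0762 and -0.52 ± 0.25, adjusted p = 0.131). In the paced mongrels the brightest probe set differed by -0.59 ± 0.25 (adjusted p = 0.138) and did not pass. The fainter ones, however, passed as lower in the paced mongrels, the first with 388, 394 and 314 in the controls, 257, 221 and 221 in Dobermans K, L and R, 283, 203, 249.8 and 172 in the Boxers, and 31.8, 44.7 and 46.1 in the paced mongrels and a difference of -2.75 ± 0.25 (adjusted p = 0.000108). Its paced values lie below the filter level, and the difference was -3.14 and -2.03 with pseudocounts of 1 and 64. The second gave 486, 507 and 413 in the controls and 114, 152 and 172 in the paced mongrels and a difference of -1.59 ± 0.25 (adjusted p = 0.00273). All 3 probe sets thus placed every paced array below every control.

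USP24, a large and widely expressed deubiquitinase, was 1491, 1517 and 1521 in the controls, 2196, 3762 and 2856 in Dobermans K, L and R, 1931, 2199, 1524 and 1547 in the Boxers, and 1878, 1517 and 1502 in the paced mongrels. The controls lay close together and all 3 Dobermans above them, with 0.92 ± 0.21 (adjusted p = 0.0131). USP15, which acts on TGF-beta receptor complexes, was 458, 500.3 and 511 in the controls and 443, 147 and 146 in Dobermans K, L and R, a difference of -1.14 ± 0.33 (adjusted p = 0.0265) carried by L and R. Its fainter probe set went the other way, 202, 210.3 and 237 in the controls and 277, 585 and 473 in Dobermans K, L and R, and passed as higher (0.93 ± 0.29, adjusted p = 0.0327). USP16, a histone H2A deubiquitinase, was 475, 475 and 727 in the controls and 536, 129 and 204 in Dobermans K, L and R and fell by 1.12 on the log2 scale. USP38 was 378, 323 and 349 in the controls and 358, 119.5 and 82.7 in Dobermans K, L and R, with -1.10 ± 0.36 (adjusted p = 0.0422). For both, K lay within the control range.

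USP11 was 2556, 2339 and 2258 in the controls and 2637, 3599 and 4388 in Dobermans K, L and R, and rose by 0.54 ± 0.18 (adjusted p = 0.0457). Its fainter probe set had a difference of -1.14 ± 0.41 (adjusted p = 0.0546) and did not pass. USP50 was 136, 113 and 185 in the controls, 226, 507 and 209 in Dobermans K, L and R, 151, 129.6, 144 and 133 in the Boxers, and 252, 273 and 386 in the paced mongrels. Dobermans and paced mongrels were above all controls and Boxers, with 0.95 ± 0.32 (adjusted p = 0.0423) and 1.00 ± 0.32 (adjusted p = 0.0555), of which the first passed. USP5, which takes apart free ubiquitin chains, was 350.4, 527 and 521 in the controls, 533, 939.5 and 902 in Dobermans K, L and R, 439, 589, 357 and 451 in the Boxers, and 697, 741 and 874 in the paced mongrels. It did not pass against the controls, but was higher in the Dobermans than in the Boxers (0.74 ± 0.24 (adjusted p = 0.0302)) and in the paced mongrels than in the Boxers (-0.74 ± 0.24 (adjusted p = 0.0478) for Boxers minus paced).

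USP14, which sits on the proteasome and had the brightest USP probe set, was 4931, 1716 and 2522 in the controls, 2286, 6045 and 3316 in Dobermans K, L and R, 2706, 2920.3, 3594 and 2241 in the Boxers, and 1822, 2034 and 1571 in the paced mongrels. It did not pass in any comparison, and its controls alone ran from 1716 to 4931. USP19, a deubiquitinase studied in muscle wasting, USP7, which stabilises MDM2 and p53, and USP4, USP9X and USP25 did not pass in any comparison by their brightest probe sets, although a fainter one of USP4, USP7 and USP9X passed in at least 1. USP25 showed how far the 3 Dobermans could part, with 688, 215 and 157 in K, L and R around controls of 328, 421 and 373.

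In the Boxers no ubiquitin gene passed against the controls under the main setting or any alternative. Groups that did not overlap were counted all the same. Every Boxer array was above every control in 17 of 111 genes (15.3%, beside 7.94% of all genes) and below in 9 (8.11%, beside 9.77%). The smallest p-values among rises belonged to TRIM17, RNF19B (0.67 ± 0.28 (adjusted p = 0.622)) and RNF20, and among falls to FBXW7, RNF121 (-0.55 ± 0.18 (adjusted p = 0.457)) and RNF181 (-0.38 ± 0.17 (adjusted p = 0.656)). RNF19B was 2419.8, 1925 and 2482 in the controls and 3843, 3508, 3389 and 3743 in the Boxers. Its fainter tested probe sets differed there by only 0.09 ± 0.47 (adjusted p = 0.987) and 0.11 ± 0.29 (adjusted p = 0.976). RNF121, an ER and Golgi ligase, was 553, 549.8 and 606 in the controls and 419, 378, 352 and 390.0 in the Boxers. By the brightest probe sets the differences of these genes were of 0.38 to 0.89 and none had an adjusted p under 0.457.

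In the paced mongrels the groups did not overlap in 21 of 111 genes above the controls (18.9%, beside 19.6% of all genes) and 26 below (23.4%, beside 22.5%). With array weights 24 ubiquitin genes passed in this comparison, or 21.6% beside 26.7% of all genes. With a fit of the 6 paced and control arrays alone 19 passed, or 17.0% beside 23.2%. Other tested probe sets that passed here and whose brightest probe set did not were those of FBXO31, ASB9, CUL4A, FBXO38 and USP8, which are named here after their values were seen. FBXO31 gave 213, 222 and 155 in the controls and 38.0, 49.0 and 56.2 in the paced mongrels by its fainter probe set, a difference of -1.73 ± 0.30 (adjusted p = 0.0037), against -0.50 ± 0.24 (adjusted p = 0.188) by the brightest. Its paced values lie below the filter level, and the difference was -2.02 and -1.21 with pseudocounts of 1 and 64. ASB9 gave 126, 161 and 113 in the controls, 173, 608 and 385 in Dobermans K, L and R, and 21.9, 26.4 and 32.1 in the paced mongrels by its fainter probe set, lower in the paced mongrels (-1.80 ± 0.38, adjusted p = 0.00965) and higher in the Dobermans (1.29 ± 0.38, adjusted p = 0.0286). Here too the size in the paced mongrels depended on the pseudocount, at -2.27 with 1 and -1.11 with 64. Without the Dobermans, where this ASB9 probe set was highest, its mean would have been under the filter level. Its calls are therefore given as a description only. The brightest ASB9 probe set passed in neither comparison.

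**Figure D5:**
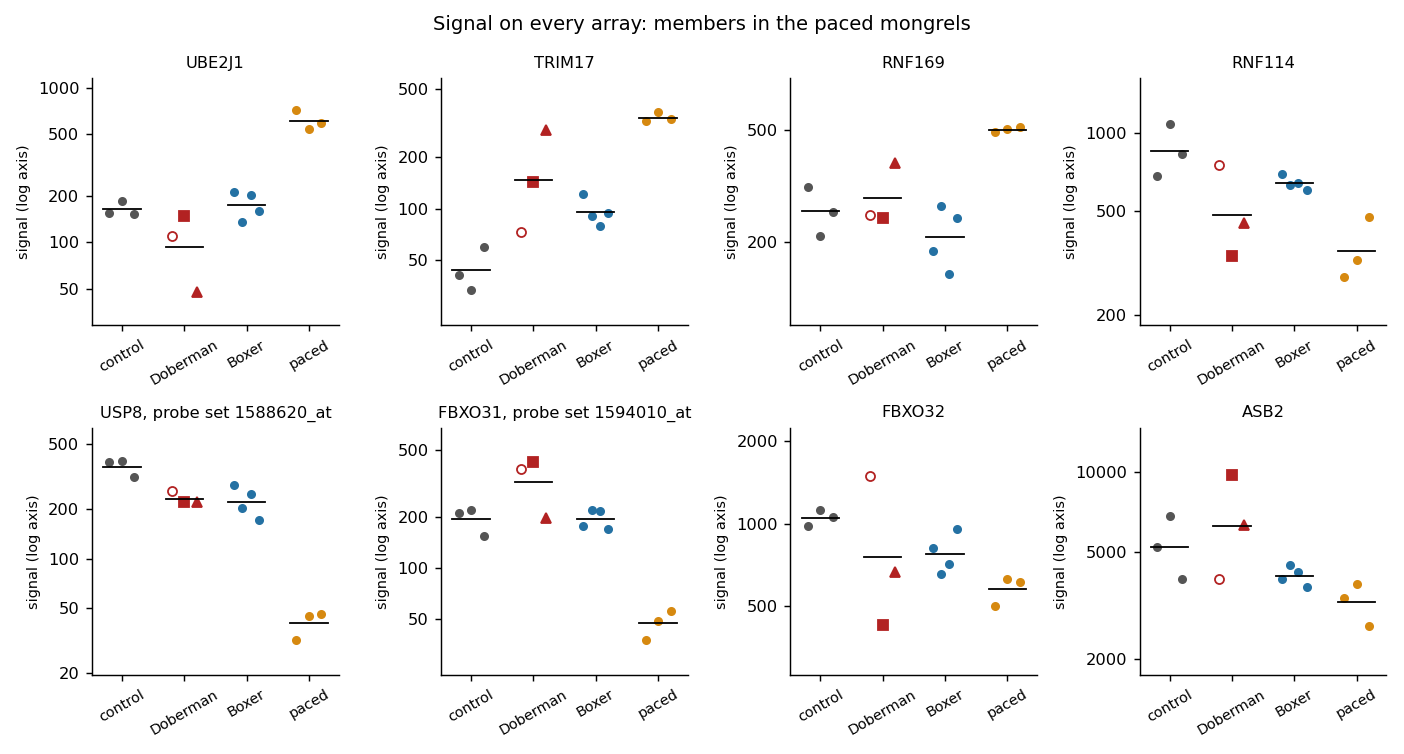
Signal on every array (log axis) in the 4 groups for the 4 genes that passed in paced mongrels against controls (top row) and, below, a fainter probe set each of USP8 and FBXO31 and the brightest probe sets of FBXO32 and ASB2; symbols are as in the plot of Doberman genes and lines are group means on the log2(signal + 16) scale. UBE2J1 and RNF169 stand above all other arrays in the 3 paced mongrels, and the fainter USP8 and FBXO31 probe sets stand below.

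Over the 42 genes with several probe sets, 40 further probe sets of 27 genes were tested. They had the sign of the brightest probe set in 23 of 40 for Dobermans against controls, 23 for Boxers against controls, 21 for paced mongrels against controls, 21 for Dobermans against Boxers, 22 for Dobermans against paced mongrels and 20 for Boxers against paced mongrels. Both probe sets passed with opposite signs for USP15 in Dobermans against controls, for ASB11 and USP15 in Dobermans against Boxers, and for FBXO38 in Dobermans and in Boxers against paced mongrels. The fainter FBXO38 probe set passed the filter only through the paced mongrels, so its calls are a description only. Among the genes that passed in Dobermans against controls, 7 further probe sets did not, 1 each of UBE2B, FBXL5, FBXO31, ASB11 and USP11 and both of USP8. The name of 17 of the 111 probe sets ended in _s_at and of 2 in _x_at, suffixes the array maker uses for probes shared between transcripts, and a call for those may include a related transcript. UBE2B, UBE2N, UBE2K, UBE2J1, ASB11 and FBXL5 were among the former, and RNF130 and USP7 the latter.

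The rest of the ubiquitin system was read from fixed lists of genes outside these families. Of all genes, 26.0% passed in Dobermans against controls, 11.9% higher and 14.1% lower. The lists are short, so their single counts are a description only. Of 8 tested ubiquitin and ubiquitin-like precursors, 0 rose and 3 fell in the Dobermans against the controls, UBB (-0.67 ± 0.22, adjusted p = 0.0392), SUMO2 and ATG12. UBB encodes polyubiquitin itself, and its mean signal was 22860 (SD 5230, 3 arrays) for controls and 14400 (SD 3570, 3 arrays) for Dobermans. Of 5 activating enzymes, all of them for ubiquitin-like proteins, UBA7 rose and UBA3 and NAE1 fell. UBA1 and UBA6, which activate ubiquitin itself, were on the list but not among the tested genes. Of 20 cullin adaptors and regulators, 2 rose (KLHL38 and SPOP) and 8 fell: ELOC, KLHL24, KLHL41 and the COP9 signalosome subunits COPS2, COPS3, COPS4, COPS5 and COPS8. COPS5, the subunit that removes NEDD8 from cullins, fell by 1.49 on the log2 scale (adjusted p = 0.0157), and KLHL24 by 2.28 (adjusted p = 0.00215). Of 13 other deubiquitinases, UCHL1 (2.16 ± 0.39, adjusted p = 0.00567) and JOSD2 rose and UCHL3 and EIF3H fell. The 13 HECT and RBR ligases had 0 rises and 2 falls (WWP1 and ARIH1), the 16 other RING and U-box ligases 0 rises and 2 falls (SIAH1 and PJA2), the 5 shuttle factors 1 fall (UBXN1) and the 4 upstream regulators of muscle ligases no call.

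Together, 25 of the 84 tested genes of these lists passed in the Dobermans, or 29.8% beside the 26.0% of all genes. Without L and R, an alternative chosen after the data were seen, 4 passed (ISG15, JOSD2, KLHL24 and UCHL1), or 4.76% beside 3.31%. None of the COP9 subunits was among them.

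In the same lists 0 genes passed in the Boxers in limma, with 8 at an unadjusted p under 0.05. In the paced mongrels 6 passed, or 7.14% beside 9.23% of all genes: KLHL20 rose and DDB1, KLHL24, HERC4, UBR3 and UBXN1 fell. UBXN1, a ubiquitin-binding cofactor of the VCP segregase, had a mean signal of 1089 (SD 133) for the 3 controls, 384 (SD 286) for the 3 Dobermans, 684 (SD 64.6) for the 4 Boxers and 126 (SD 40.5) for the 3 paced mongrels. The paced difference was -2.999 ± 0.373 (adjusted p = 0.000963) and the Doberman difference -1.69 ± 0.37 (adjusted p = 0.0113).

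Markers of other cell types were counted against the controls in the same way. Of all genes, 26.0% passed in the Dobermans, 0.0572% in the Boxers and 9.23% in the paced mongrels. The marker lists are short, and their counts are a description only. Of 7 macrophage and monocyte markers 2 rose and 1 fell in the Dobermans, and their summed signal was 2193 to 3670 in the controls and 2326 to 5742 in the Dobermans. Of 7 fibroblast markers 2 rose, with sums of 13190 to 21200 in the controls and 19930 to 30640 in the Dobermans. Of 4 lymphocyte markers 1 rose, with sums of 612 to 864 in the controls and 990.1 to 1954 in the Dobermans. In the paced mongrels 1 macrophage marker (FCGR1A) and 1 fibroblast marker (MFAP4) rose, with sums of 2386 to 2781 and 14350 to 17120. In the same dogs 2 of 5 endothelial markers fell, with sums of 6585 to 8569 in the controls and 5392 to 6876 in the paced mongrels. The lymphocyte sums of 1016 to 1245 in the paced mongrels were above those of the controls, but the markers went both ways. NKG7 rose from a mean of 107.6 in the controls to 627.5, and CD3E fell from 356.0 to 34.6. NKG7 passed the filter only through the paced mongrels, where it was highest, so its call and the lymphocyte sum are a description only. Smooth muscle markers had 1 of 4 higher in the Dobermans and 1 of 4 lower in the paced mongrels. No marker passed in the Boxers. The part of cell composition in the ubiquitin results was not tested.

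The 18 untested genes were TRIM14, TRIM36, TRIM45, TRIM66, TRIM7, FBXO39, FBXO5, CUL9, RNF123, RNF151, RNF165, RNF207, RNF212B, RNF24, USP30, USP46, USP49 and USP54. Some were nonetheless above the filter level on every array of 1 or 2 groups. This was so for TRIM36, TRIM45 and RNF212B in the Dobermans and for RNF123 and RNF151 in the paced mongrels. It also held for RNF207 in the controls and paced mongrels and CUL9 in the Dobermans and paced mongrels. RNF123, the catalytic part of a cytoplasmic ligase, was 42.3, 59.0 and 78.6 in the controls, 67.6, 202 and 24.8 in Dobermans K, L and R, 38.3, 57.2, 37.6 and 31.3 in the Boxers, and 269, 218 and 407 in the paced mongrels. RNF207, a ligase known from cardiac repolarisation, was 188, 233 and 112 in the controls, 30.5, 12.4 and 247 in Dobermans K, L and R, 23.8, 68.2, 8.4 and 39.1 in the Boxers, and 112, 131 and 129 in the paced mongrels. CUL9 was 77.6, 79.5 and 96.5 in the controls, 112, 176 and 261 in Dobermans K, L and R, 83.8, 46.0, 78.3 and 46.1 in the Boxers, and 203, 125 and 155 in the paced mongrels. These values are given without a test, because a gene with a mean under the filter level was left out whatever its groups.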

How the data were processed

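Each of the 13 samples had 1 array. The authors deposited linear MAS5 intensities, per the submitters' processing notes (version not given in the sources used here). Each array's 2% trimmed mean lay near 500. Signals ran from 0 to 95340, and 77 control probe sets were set aside. After log2(signal + 16), the 40th percentile of the means (signal 108) served as filter, and the 14302 probe sets above it were tested in limma 3.58.1 (R 4.3.3) with 1 mean per group over all 13 arrays, 9 residual degrees of freedom and a trend of variance on intensity; Benjamini-Hochberg adjustment ran within each comparison, at 0.05. Genes outside these families were read the same way, from the brightest tested probe set, and 5242 genes were tested in all. Symbols came from the array annotation of GEO, and 123 of the 129 gene identifiers were in the reference, with 0 symbols changed.

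Each p-value rests on the between-sample spread pooled over the 4 groups, and the number of arrays limits the precision. The genes, the lists and the tests were chosen with earlier results of these data known. Genes were named by rule: the 12 largest rises and falls that passed in Dobermans against controls, 8 in each other comparison, the 3 smallest p where fewer than 3 passed, the brightest and most variable of each family, and a list of genes with known roles. Alternatives were leaving out each array, or L and R together; median centring; array weights; adding 1 or 64 in place of 16; a GAPDH covariate; each gene's faintest tested probe set; a fit of the compared groups alone; dropping the filter or raising it to the 70th percentile; and quantile normalization. Added after seeing the data were the other ubiquitin genes without L and R and the pseudocounts for fainter probe sets of USP8, FBXO31 and ASB9. The pipeline was tested on simulated data. Sequences were not used here.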

Additional observations from a re-analysis of the deposited data

Results flagged for a closer look

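In 3 of the 69 named and tested genes 1 Boxer stood away from the other 3 by more than Dixon's 95% limit for 4 samples, where chance flags about 1 in 20 groups. The gap made up 0.834 of the group's range for FBXL5 (Boxer 3 high), 0.871 for FBXO42 (Boxer 2 low) and 0.866 for TRIM28 (Boxer 1 high).

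Of the 34 ubiquitin genes that passed between Dobermans and Boxers, 30 are among the named genes, and for these the difference from the controls was unequal in the 2 breeds by that direct comparison. The log2 difference, Doberman minus Boxer, was negative for 17: FBXO7 (-1.98), ASB11 (-1.62), UBE2D3 (-1.49), RNF6 (-1.39), RNF11 (-1.39), FBXL5 (-1.39), UBE2B (-1.38), RNF13 (-1.36), USP38 (-1.27), UBE2K (-1.09), USP8 (-1.06), USP15 (-1.06), RNF141 (-1.06), UBE2N (-0.98), CUL3 (-0.64), UBE2V1 (-0.53) and RNF7 (-0.45). It was positive for 13: RNF130 (1.00), USP50 (0.98), FBXO31 (0.93), RNF25 (0.77), UBE2F (0.76), FBXW4 (0.75), USP5 (0.74), USP24 (0.68), FBXW8 (0.68), TRIM28 (0.68), RNF181 (0.66), RNF121 (0.60) and USP11 (0.60). Of these 30, 16 were named through this same comparison, so their number is a description. With dog K as the only Doberman, ASB11 and RNF7 were the 2 of these 30 that still passed, and USP21 and USP25 passed there as well.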

How the results depend on the processing

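The count of ubiquitin genes past the threshold depended on the setting in 5 of the 6 comparisons, and the cause was not tested. For Boxers against controls it was 0 throughout. Leaving out 1 array gave 5 to 53 in Dobermans against controls (26 with all arrays), 2 to 4 in paced mongrels against controls (4), 16 to 63 in Dobermans against Boxers (34), 10 to 50 in Dobermans against paced mongrels (27) and 4 to 8 in Boxers against paced mongrels (16). Of all 14302 tested probe sets, 1192 to 7340, 784 to 1125, 2211 to 8089, 2177 to 6166 and 1246 to 1878 passed, in the same order. Without L and R the 3 Doberman counts were 2, 4 and 14. The other ubiquitin genes passing in Dobermans against controls went from 25 to 4 without L and R. With both left out K was the only Doberman, so these counts are a description only. The share of all genes that passed fell as well in the 3 Doberman comparisons. A fit of the compared groups alone gave 0 (24 unadjusted), 19, 7, 2 and 31 in the order above. As shares these were 0.0%, 17.0%, 6.42%, 1.89% and 28.2%, beside 0.191%, 23.2%, 14.3%, 2.52% and 33.9% of all genes. The GAPDH covariate gave 1, 13, 0 (15 unadjusted) and 4 in the first 4, where 95, 2935, 56 and 1028 of all 14302 tested probe sets passed. In paced mongrels against controls array weights gave 24 (21.6%, beside 26.7% of all genes), median centring 33 (29.7%, beside 31.7%) and quantile normalization 8 (7.21%, beside 8.41%). No filter gave 8, beside 4389 of 23836 probe sets, and the 70th percentile filter 1, beside 220 of 7151. The faintest tested probe set of each gene gave 7, beside 1747 of 14302. In Boxers against paced mongrels array weights gave 32 (28.8%, beside 33.3% of all genes) and median centring 41 (36.9%, beside 43.4%). No filter gave 25, beside 5720 of 23836 probe sets, and the 70th percentile filter 3, beside 407 of 7151. That filter left 17 in Dobermans against paced mongrels, beside 1747 of 7151 probe sets.

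Signs turned with the faintest probe set for ASB11 (0.78 against controls, 0.81 against Boxers, 0.39 against paced mongrels), USP15 (0.93) and USP11 (-1.14) in Dobermans against controls, FBXL5 in Dobermans against Boxers (0.061) and paced mongrels (0.11), FBXO38 in paced mongrels against controls (1.12), Dobermans against paced mongrels (-1.73) and Boxers against paced mongrels (-1.06), RNF114 in paced mongrels against controls (0.014) and UBE2R2 in Boxers against paced mongrels (-0.15). They turned without L and R for UBE2G2 (0.20) and RNF6 (0.047) against controls, RNF6 (0.15) and RNF11 (0.0029) against Boxers and RNF11 (0.0039) against paced mongrels, and with the GAPDH covariate for UBE2G2 (0.074) against controls and RNF11 against Boxers (0.059) and paced mongrels (0.16). Pseudocounts of 1 and 64 turned no sign of a named gene. No paired analysis was run. Some numbers recur between groups, such as P1 and LV01 or P4 and LV04, but the labels do not say whether these belong together.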
